A study of Mus musculus with 8 samples.

Results

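B cells of the mouse heart were described here from single-cell RNA-seq libraries and Visium spatial sections made after sham surgery and after transverse aortic constriction (TAC), an operation that narrows the aortic arch and loads the left ventricle with pressure. A barcode was counted as a B cell when it held at least 5 UMIs (unique molecular identifiers, each standing for 1 captured transcript) of Cd79a, Cd79b and Ms4a1 together, no UMI of the T cell receptor genes Cd3d and Cd3e, and fewer than 5 UMIs of the macrophage complement genes C1qa, C1qb and C1qc. Members were thus chosen by measured UMIs of these genes, and their levels are given below as a description only. By this rule 3518 of 27053 barcodes (13.0%) that passed the filters on genes, UMIs and mitochondrial transcripts were B cells. The 4 libraries and 4 sections came from male wild-type C57BL/6J mice given as 8 weeks old, and stood for sham surgery (sham) and for 2, 4 and 6 weeks after TAC (TAC-2w, TAC-4w and TAC-6w), with 1 library and 1 section per condition. The labels give no time of harvest for the sham hearts and do not state how many hearts entered a library, and they describe a preparation of nuclei where the methods of the study describe dissociated cells. No statistical test between conditions was therefore possible, and all intervals below are 95% intervals of counting error only.

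B cells carry an antigen receptor built from an immunoglobulin heavy and light chain together with the signalling chains CD79A and CD79B. Newly made B cells bear the receptor as IgM alone, and on the way to a mature follicular B cell they add IgD (Ighd), the low-affinity IgE receptor CD23 (Fcer2a) and the complement receptor CD21 (Cr2), which marginal zone B cells carry at high density. In the unoperated mouse heart most B cells are known to be mature and to lie in or along small vessels, in exchange with the blood.

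The libraries were of unequal depth and make-up. The files held 10275 barcodes in sham, 7924 in TAC-2w, 8420 in TAC-4w and 5854 in TAC-6w, with 86671674, 78587992, 48278486 and 28793316 UMIs. After filtering 8228, 6501, 6747 and 5577 barcodes were left. TAC-4w stood apart from the other libraries before any B cell was counted, since fibroblast barcodes (at least 10 UMIs of Col1a1, Col3a1 and Dcn) made up 5.62% of it against 57.8% in sham, 52.1% in TAC-2w and 52.1% in TAC-6w. The libraries of sham and TAC-6w carried the label batch 3, TAC-2w batch 1 and TAC-4w batch 2, so batch and time cannot be told apart for TAC-2w and TAC-4w, and only TAC-6w and sham can be compared within a batch. Pairs of libraries shared 9 to 30 barcode sequences and 1 B cell barcode, shared by TAC-4w and TAC-6w.

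The identity of the barcodes was checked with genes that the rule did not use. Pax5, the transcription factor that holds B cells in their lineage, had a UMI in 51.7% of the B cells of sham, 61.4% in TAC-2w, 66.3% in TAC-4w and 28.8% in TAC-6w. In T cell barcodes the share was 0 to 0.309% and in fibroblast barcodes 0.0591 to 2.11%, with the highest values of both in TAC-4w. The median T cell barcode held 5048, 5852.5, 5665.5 and 2969 UMIs. Fcer2a had a UMI in 50.0, 55.6, 65.2 and 44.4% of the B cells in the same order, in no T cell barcode and in at most 1.06% of fibroblast barcodes. The median B cell held 3235 UMIs in sham, 3772 in TAC-2w, 4465.5 in TAC-4w and 2054 in TAC-6w, so shares of cells with a UMI were lowest where depth was lowest. With every cell thinned to 1000 UMIs the Pax5 shares were 19.7, 23.5, 22.6 and 14.0%, and the Fcer2a shares 21.4, 17.0, 25.5 and 26.2%. The label of B cells therefore held in all 4 libraries by both markers.

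B cells made up a much larger share of the TAC-4w library than of the others. They were 238 of the barcodes in sham (2.89%, Clopper-Pearson interval 2.54 to 3.28), 153 in TAC-2w (2.35%, 2.00 to 2.75), 2474 in TAC-4w (36.7%, 35.5 to 37.8) and 653 in TAC-6w (11.7%, 10.9 to 12.6). Relative to sham the share was 0.814 times as high in TAC-2w (0.660 to 1.00), 12.7 times in TAC-4w (11.1 to 14.5) and 4.05 times in TAC-6w (3.48 to 4.72). The 3 ratios share the sham library. The TAC-4w library thus held 70.3% of all B cells, and any pool over libraries is mostly that library. T cell barcodes made up 1.75% of sham, 1.91% of TAC-2w, 4.80% of TAC-4w and 0.753% of TAC-6w, which gave 1.65, 1.23, 7.64 and 15.5 B cells for each T cell barcode. In TAC-6w B cells were above and T cell barcodes below their shares in sham.

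The threshold of 5 UMIs bore on TAC-6w more than on the other libraries. Exactly 5 UMIs of the 3 genes, just inside the rule, were held by 15 B cells in sham, 4 in TAC-2w, 18 in TAC-4w and 88 in TAC-6w, and exactly 4 UMIs, just outside it, by 6, 2, 23 and 112 barcodes. The median B cell had 15, 16, 22 and 8 UMIs of these genes in that order. With a minimum of 10 UMIs the share in TAC-6w was 1.85 times that in sham in place of 4.05. With barcodes of at least 1000 UMIs thinned to 1000, and a lower minimum of 2 UMIs of the 3 genes, it was 4.87 times. With mitochondrial UMIs under 5%, which left 35 B cells in sham and 30 in TAC-2w, the ratios were 1.13 in TAC-2w (0.670 to 1.89), 36.0 in TAC-4w (25.7 to 52.0) and 18.2 in TAC-6w (12.9 to 26.4). Among barcodes with a UMI of the leukocyte gene Ptprc the ratios to sham were 0.809 in TAC-2w, 6.70 in TAC-4w and 3.08 in TAC-6w. TAC-4w was highest and TAC-6w next in each of these counts, while TAC-2w lay above sham with mitochondrial UMIs under 5% and below it in the others.

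The sections of the same conditions did not show a B cell signal of that size. The summed UMIs of Cd79a, Cd79b, Ms4a1, Pax5 and Fcer2a were 40 in the sham section, 61 in TAC-2w, 56 in TAC-4w and 115 in TAC-6w, which were 1.54, 1.25, 1.75 and 2.38 CPM (UMIs in each 1000000 UMIs of the section). Relative to sham this was 0.813 in TAC-2w (interval 0.537 to 1.24), 1.14 in TAC-4w (0.746 to 1.75) and 1.55 in TAC-6w (1.07 to 2.28). Totals without the mitochondrial and ribosomal RNA features gave 0.696, 0.954 and 1.34, so the direction in TAC-4w turned. In the whole libraries the same 5 genes summed to 62.0, 50.7, 1706 and 292 CPM, with ratios of 0.818, 27.5 and 4.71. Library and section therefore gave close ratios in TAC-2w and ratios far apart in TAC-4w, where the interval of the section ended at 1.75. In a section, fewer cells of a type and less RNA per cell cannot be told apart. A UMI of these genes was found in 31 of 1676 spots of sham (1.85%), 49 of 2063 of TAC-2w (2.38%), 48 of 1228 of TAC-4w (3.91%) and 96 of 2193 of TAC-6w (4.38%), and no spot held more than 5. Median depth per spot was 15488.5, 24523, 27593 and 20203 UMIs, and library and section carried the same batch label at each TAC time point but not in sham, whose section was labelled batch 1.

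**Figure D1:**
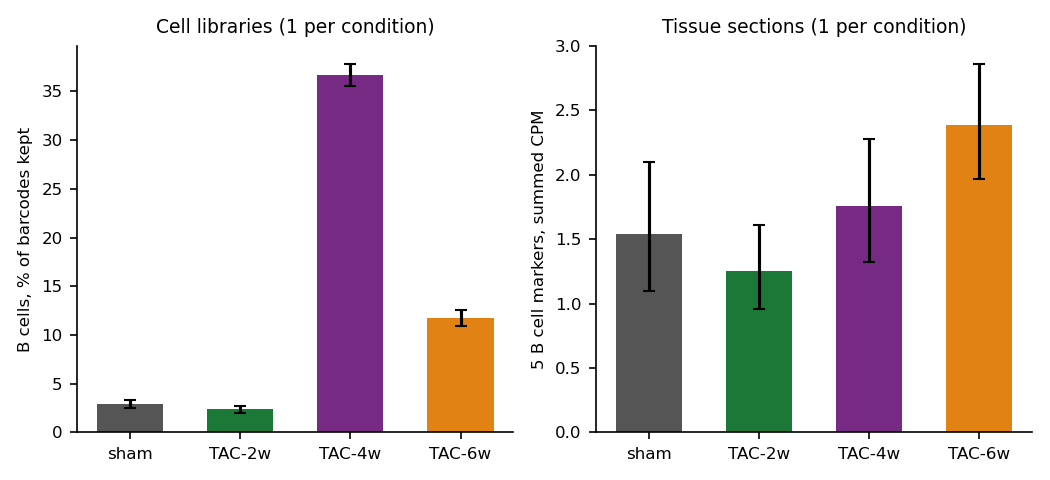
Left, B cells as a percentage of filtered barcodes (y axis) in the library of each condition, with exact binomial 95% intervals. Right, the summed CPM of 5 B cell markers in the section of each condition, with exact Poisson 95% intervals. The library bars differ widely, with 36.7% in TAC-4w and at most 11.7% elsewhere, and the section bars lie between 1.25 and 2.38 CPM.

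The measured genes of B cell identity and of the antigen receptor were within 2-fold of sham in the B cells of all 3 TAC libraries, with the highest medians in TAC-4w. Levels are given as CPM of the summed UMIs of the B cells of a library, which came to 1020781 UMIs in sham, 721167 in TAC-2w, 12510686 in TAC-4w and 1652780 in TAC-6w. They are used below only to compare 1 gene across libraries. Of the measured genes of the B cell identity list (13, 16 and 12 in the comparisons of TAC-2w, TAC-4w and TAC-6w with sham), none was past 2-fold, with median ratios of 1.07, 1.42 and 1.01. The same held for the 13, 15 and 12 measured genes of antigen receptor signalling, with medians of 1.01, 1.39 and 0.968. A gene was measured at 100 CPM or more in either library. The TAC-4w comparison thus holds genes that entered through TAC-4w alone, such as Cd22. Summed over all genes of each list, without that minimum, TAC-4w was at 1.39 and 1.21 of sham. For comparison, 4.94, 14.0 and 10.4% of the 1194, 1231 and 1120 genes measured in these comparisons had a ratio past 2-fold in either direction, and their median ratios were 1.04, 1.05 and 0.874. Cd79a, a signalling chain of the receptor and part of the rule, had 1987 CPM in sham, 1919 in TAC-2w, 2546 in TAC-4w and 2291 in TAC-6w. Ebf1, a transcription factor needed to make B cells, had 1459, 1523, 1835 and 938 CPM, and Pax5 had 201, 225, 254 and 139 CPM. Both were highest in TAC-4w and lowest in TAC-6w, at 0.643 and 0.690 of their sham levels there. Cd22, an inhibitory receptor of B cells, had 84.2, 83.2, 160 and 89.5 CPM and was 1.90 times higher in TAC-4w than in sham (1.53 to 2.38). Cd22 met the minimum of 100 CPM through TAC-4w alone, where it was high, and is given as a description.

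Vpreb3, which is transcribed in immature and transitional B cells and binds newly made light chains in the endoplasmic reticulum, was above sham in the B cells of all 3 TAC libraries. It had 219 CPM in sham, 338 in TAC-2w, 399 in TAC-4w and 529 in TAC-6w. The ratios to sham were 1.54 (1.28 to 1.86), 1.82 (1.59 to 2.09) and 2.41 (2.08 to 2.80), and no interval included 1. At 1000 UMIs per cell 15.5, 22.2, 26.5 and 33.5% of B cells had a Vpreb3 UMI, against none of the T cell or fibroblast barcodes thinned in the same way. In the sections Vpreb3 was at 5, 8, 2 and 3 UMIs, too few to give an order. The 250 bases before the start of Vpreb3 (RefSeq, GRCm38.p6, chr10:75948050-75948299, plus strand) are shown because the gene was above sham in each TAC library and in Ighm-only cells, and because they hold the octamer of immunoglobulin promoters.
Vpreb3: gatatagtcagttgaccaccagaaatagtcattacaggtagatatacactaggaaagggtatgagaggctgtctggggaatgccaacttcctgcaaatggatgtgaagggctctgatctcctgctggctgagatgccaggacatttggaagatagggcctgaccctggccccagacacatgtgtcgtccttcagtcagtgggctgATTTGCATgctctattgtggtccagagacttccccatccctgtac
Capitals mark ATTTGCAT, the reverse complement of the octamer ATGCAAAT, whose last base lies 38 bases before the start. The octamer was found on either strand in 570 of 32851 promoter windows of this kind (1.74%). It was found in 3 of the 34 genes of 3 B cell lists that had a window, which were Blnk, Prkcb and Vpreb3 (8.82%). A match is a description of the letters and no evidence of a bound site.

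Most B cells carried a marker of mature B cells, and the share with Ighm alone was lowest in TAC-4w. Cells thinned to 1000 UMIs were split into marker-positive cells, with a UMI of Ighd, Fcer2a or Cr2, Ighm-only cells, with Ighm and none of these, and cells with none of the 4 genes. Thinning kept 238 B cells of sham, 153 of TAC-2w, 2471 of TAC-4w and 648 of TAC-6w. Marker-positive cells were 53.8% in sham, 52.9% in TAC-2w, 69.9% in TAC-4w and 58.2% in TAC-6w. Ighm-only cells were 35.7% (29.6 to 42.2), 37.9% (30.2 to 46.1), 26.1% (24.3 to 27.8) and 31.3% (27.8 to 35.1) in the same order. The interval of TAC-4w lay below those of sham and TAC-2w, and met that of TAC-6w at 27.8%. Without thinning the Ighm-only shares were 10.9% (26 of 238), 11.8% (18 of 153), 4.16% (103 of 2474) and 16.8% (110 of 653), so many cells that were Ighm-only at 1000 UMIs carried a marker UMI at full depth. The order of sham and TAC-6w turned with depth, while TAC-4w was lowest at each depth.

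Of the marker genes, Ighd alone set most of the split. A UMI of Ighd with neither Fcer2a nor Cr2 was held by 29.8, 32.0, 40.0 and 29.5% of thinned cells, Fcer2a alone by 10.9, 7.19, 8.54 and 14.4%, and Ighd with Fcer2a by 7.98, 9.80, 15.5 and 10.5%. Cr2 was rare, with a UMI in 5.04, 3.92, 5.91 and 3.86% of thinned B cells. Of thinned T cell barcodes 0 to 0.694% had a UMI of Ighd, and 5.00 to 11.8% had one of Ighm, against 79.8 to 87.3% of B cells. Igkc, which was more abundant in B cells, was in 0, 0, 6.19 and 2.50% of thinned T cell barcodes. Thinned fibroblast barcodes had Ighm in 0.338, 0.356, 1.32 and 0.173%. The Ighm share of T cell barcodes is thus no plain measure of background, and its source was not tested. Among all Ighm and Ighd UMIs of B cells, Ighd made up 23.2% in sham (21.6 to 25.0), 21.4% in TAC-2w (19.6 to 23.4), 27.1% in TAC-4w (26.7 to 27.6) and 21.9% in TAC-6w (20.6 to 23.3). TAC-4w was again apart from the other 3, whose intervals overlapped. The level of Ighd was 556, 553, 951 and 488 CPM, 1.71 times higher in TAC-4w than in sham, and that of Ighm was 1838, 2029, 2552 and 1735 CPM, 1.39 times higher there.

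**Figure D2:**
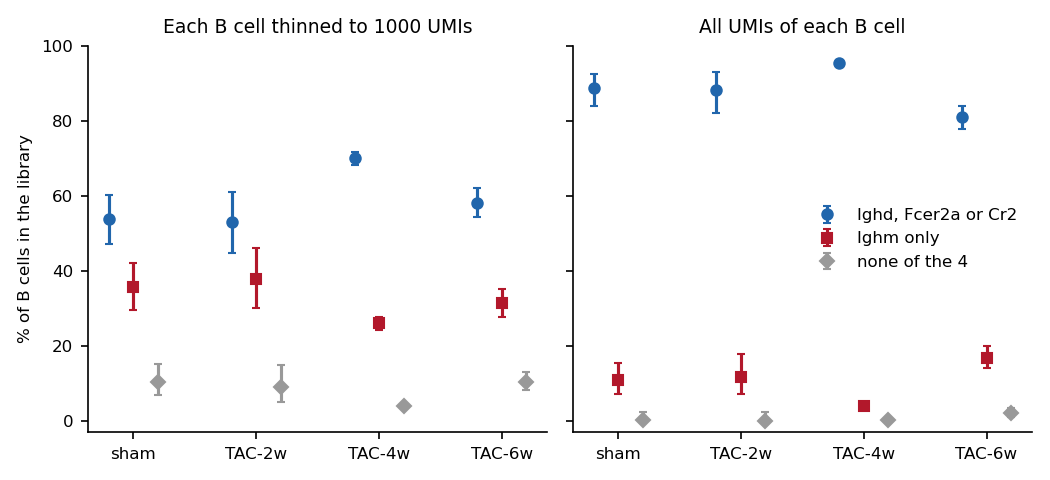
Share of B cells in each subset per library, in percent with exact binomial 95% intervals, for cells thinned to 1000 UMIs and for unthinned cells. Ighm-only cells are lowest in TAC-4w at both depths, at 26.1% thinned and 4.16% unthinned.

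Kappa cells outnumbered lambda cells in every library. Igkc, the kappa constant region, had 9120, 7283, 10424 and 7937 CPM in B cells, with 25.6% of the UMIs of sham in 1 cell. Of the lambda constant regions Iglc1 had 865, 689, 718 and 554 CPM, Iglc2 1315, 1065, 1268 and 1165, and Iglc3 569, 573, 761 and 670. Among B cells with at least 10 light chain UMIs (234, 151, 2438 and 608 cells), lambda UMIs outnumbered kappa in 13.7% of sham (9.55 to 18.8), 9.93% of TAC-2w, 8.0% of TAC-4w and 8.22% of TAC-6w. Sham was the highest of the 4. In thinned cells the shares were 15.5, 10.3, 9.33 and 9.98%. The division was not clean, since 41.0, 35.1, 33.3 and 37.0% of the cells were mixed, with lambda above 20% and below 80% of their light chain UMIs.

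The difference between Ighm-only and marker-positive cells was the one comparison with replication, since every library holds both. Subsets were set on the thinned UMIs, and all UMIs of the cells were then summed per subset and library and compared with edgeR's quasi-likelihood test, with the library as a block. After leaving out Ighm, Ighd, Fcer2a and Cr2, which define the subsets, 202 of 4637 genes passed a Benjamini-Hochberg adjusted p of 0.05 (4.36%), of which 127 were higher (2.74%) and 75 lower (1.62%) in Ighm-only cells. Of these, 109 and 75 had the same direction in all 4 libraries. The counts rested on TAC-4w and TAC-6w, since 37 genes were called without TAC-4w and 71 without TAC-6w. The cells of 1 library are split by their own RNA here, so the 4 blocks measure how alike the split is between libraries, not between animals of known number.

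The genes that were lower in Ighm-only cells included several of antigen presentation. Of the 11 MHC class II genes tested 6 were lower, with a list median of -0.39 on the log2 scale against -0.01 over all genes tested. H2-Aa, a chain of the class II molecule, had 3149 CPM in Ighm-only and 3794 in marker-positive cells of sham, 2903 and 4308 in TAC-2w, 3226 and 4173 in TAC-4w, and 3980 and 5038 in TAC-6w. Ighm-only cells were lower in each library, by -0.39 ± 0.05 (log2, SE, 4 libraries, edgeR adjusted p = 0.00387). Cd74, the invariant chain that loads class II, differed by -0.28 ± 0.03 (edgeR adjusted p = 0.0016), and H2-Oa and H2-Ob, the chains of the modulator of class II loading in B cells, by -0.47 each. Of the follicular list 2 of 10 genes were lower, among them Btla, an inhibitory receptor of lymphocytes, by -0.72 ± 0.10 (edgeR adjusted p = 0.00421). It had 124.9 CPM in Ighm-only and 223.3 in marker-positive cells of sham, 100.6 and 163.1 in TAC-2w, 159.5 and 248.6 in TAC-4w, and 96.1 and 169.3 in TAC-6w. Mef2c, a factor that acts downstream of the antigen receptor, and Zfp318, which is needed for the long transcript that gives IgD, were lower by -0.48 and -0.53.

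Sox4 and Vpreb3, 2 of the 5 tested genes of the transitional list, were higher in Ighm-only cells, together with genes of other cells. Sox4, a transcription factor of early B cells, had 99.3 CPM in Ighm-only and 32.9 in marker-positive cells of sham, 122 and 24.6 in TAC-2w, 103 and 30.9 in TAC-4w, and 91.6 and 27.7 in TAC-6w. The difference was 1.78 ± 0.15 (edgeR adjusted p = 0.000408) and kept an adjusted p of at most 0.0268 when any library was left out. Vpreb3 was higher by 0.83 ± 0.15 (edgeR adjusted p = 0.0129), with 365 and 228, 596 and 203, 601 and 315, and 769 and 619 CPM, and did not pass without TAC-4w (adjusted p = 0.108). These were the genes called among the 5 tested of the transitional list, whose median was 0.56, where 2.74% of all genes tested were called higher. The largest differences were those of Vcan (3.26 ± 0.38), Timp1 (3.19 ± 0.42) and Ccn2 (3.13 ± 0.41), which encode matrix and matrix-related proteins of fibroblasts, and of Meg3 (2.63 ± 0.33), a long non-coding RNA. They were followed by Coq7, an enzyme of ubiquinone synthesis (2.21 ± 0.30), the chemokine receptor gene Ackr3 (2.01 ± 0.42), and the matrix genes Sparc (1.88 ± 0.18) and Col1a1 (1.79 ± 0.25). Of the fibroblast list 5 of the 6 genes tested were higher, and cells with at least 10 UMIs of the collagen and decorin genes Col1a1, Col3a1 and Dcn (fibroblast UMIs) were 4.71, 3.45, 0.776 and 5.42% of Ighm-only cells and 1.56, 2.47, 0.289 and 2.12% of marker-positive cells.

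The comparison was therefore repeated without cells holding 10 or more fibroblast UMIs, without thinning, and with both changes, of which the limit on fibroblast UMIs was chosen after seeing the data. They gave 99 genes of 4092 (2.42%, with 1.88% higher and 0.538% lower in Ighm-only cells), 87 of 5540 (1.57%, with 1.23 and 0.343%) and 258 of 4673 (5.52%, with 2.97 and 2.55%). In all 4 settings 32 genes were called, 28 of them higher and 4 lower in Ighm-only cells, and Sox4 and Akap12 were the 2 that were also called without TAC-4w. Among the 4 lower genes were Btla, Fchsd2 and Zfp318. Among the 28 higher ones were Coq7, Vpreb3, Stmn1 (1.25), Spib (0.63), a transcription factor of B cells, Smarca4 (1.02), a chromatin remodeller, and the histone variants H2afx, H2afz and H2afv. Vcan, Timp1, Ccn2, Meg3, Ackr3 and Col1a1 were too low to be tested once the fibroblast-rich cells were out, and the fibroblast list then had 0 of 2 genes called. Other lists of other cells were still higher in Ighm-only cells in that setting, with 3 of 6 heart muscle genes (Tnnt2, Mb and Tnni3), 2 of 2 neutrophil genes (S100a8 and S100a9), and Lyz2, Fabp4 and Hbb-bt of the macrophage, endothelial and red cell lists. With subsets set on all UMIs no gene of these lists was called higher, and Apoe was lower. The medians of the heart muscle, endothelial and neutrophil lists were then -1.29, -1.40 and -1.80. Those of the macrophage and red cell lists stayed above 0, at 0.23 and 0.73. With both changes the medians in the same order were -0.90, -1.58, -0.08, 0.20 and 0.83, and Fabp4 and Apoe were lower. MHC class II genes were lower in 4, 1 and 8 of 11 under the 3 settings, with medians of -0.27, -0.57 and -0.69. With subsets set on all UMIs Sox4, Vpreb3 and Cd24a of the transitional list were called higher. Rag1, a subunit of the recombinase that builds antigen receptors, and Il7r, the receptor for the growth factor of B cell precursors, passed the filter on low counts there and not with subsets set after thinning, through their levels in Ighm-only cells, and are given as values. Without the fibroblast-rich cells Rag1 had 11, 5, 57 and 6 UMIs in unthinned Ighm-only cells and 0, 1, 10 and 0 in marker-positive cells of sham and the TAC libraries in order of time, and Il7r 2, 11, 121 and 13 against 1, 5, 93 and 1.

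**Figure D3:**
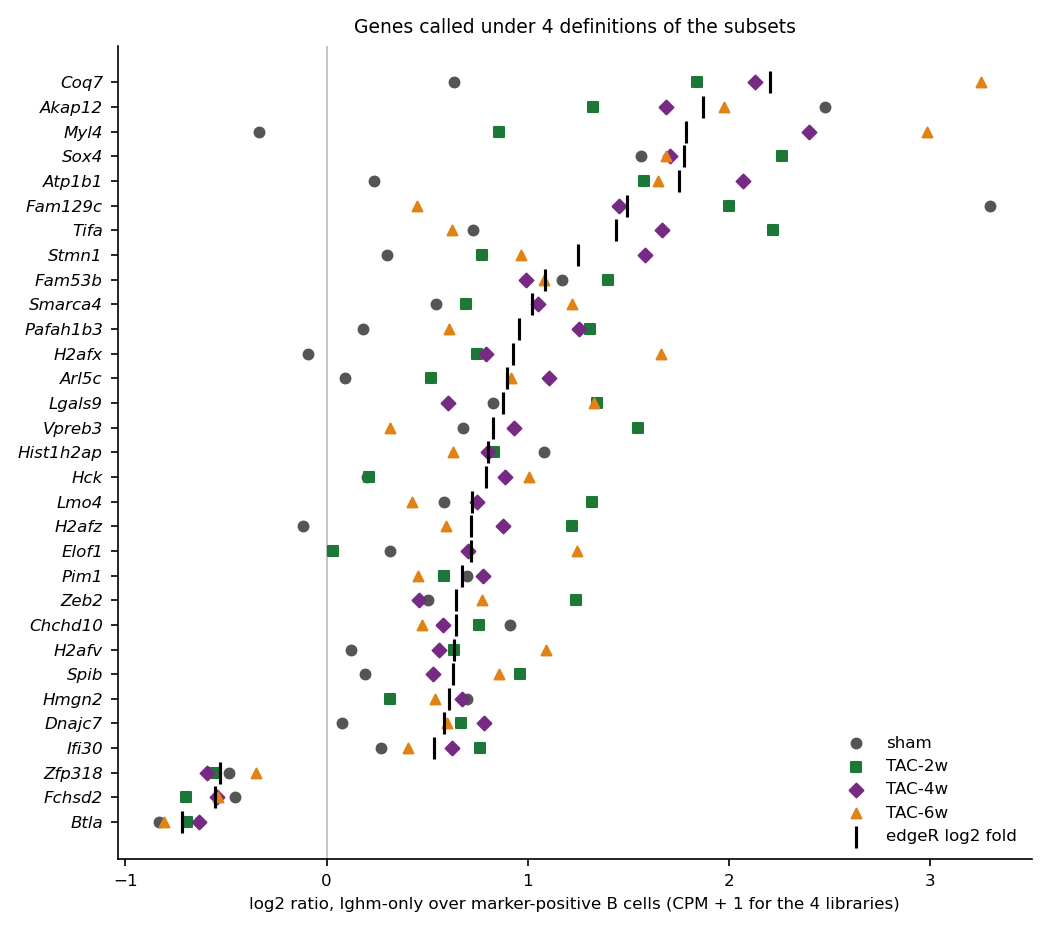
Log2 ratio of CPM + 1 in Ighm-only over marker-positive B cells (x axis) for genes called in all 4 settings, with 1 point per library and a black bar for the edgeR estimate, for subsets set after thinning. All points of Sox4 and Akap12 lie above 0 and all points of Btla, Fchsd2 and Zfp318 below it, while the sham point of Myl4, H2afx and H2afz lies below 0.

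Cells with transcripts of B cell precursors were few, and their share was higher among Ighm-only than among marker-positive cells in each library. At least 1 UMI of Rag1, Rag2, Dntt, Vpreb1 or Igll1, the genes of receptor recombination and of the surrogate light chain, was held by 4 B cells in sham (1.68%), 5 in TAC-2w (3.27%), 53 in TAC-4w (2.14%) and 7 in TAC-6w (1.07%). Among unthinned Ighm-only cells these were 3 of 26 in sham (11.5%), 4 of 18 in TAC-2w (22.2%), 26 of 103 in TAC-4w (25.2%) and 7 of 110 in TAC-6w (6.36%). Among marker-positive cells they were 1 of 211 (0.474%), 1 of 135 (0.741%), 27 of 2361 (1.14%) and 0 of 529. Fibroblast barcodes, which should lack these genes, had such a UMI in 1.2, 1.33, 2.11 and 0.964%. In every library the share of marker-positive cells was below that of fibroblast barcodes, and the share of Ighm-only cells above it. Fibroblast barcodes were deeper than B cells, with medians of 10720, 12778, 13851 and 6258 UMIs. The lower share of marker-positive cells thus does not place them below background at equal depth, which was not tested. With at least 2 UMIs the counts were 3, 2, 20 and 4 Ighm-only cells against 0, 0, 4 and 0 marker-positive cells. T cell barcodes also held these genes, in 13 of 144, 31 of 124, 44 of 324 and 1 of 42, mostly as Rag1 (68, 112, 258 and 0 UMIs) and Dntt (83, 140, 364 and 1 UMIs).

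Across libraries, genes of antigen presentation were above sham in the B cells of all 3 TAC libraries, by less than 2-fold. The measured MHC class II genes (9, 9 and 8) had median ratios to sham of 1.2, 1.36 and 1.24, and none was past 2-fold. Genes at least 2-fold higher in B cells than in other barcodes, a limit added after seeing the data, had medians of 1.06, 1.3 and 0.886. In TAC-4w the class II median was thus near that of B cell genes in general, and below those of the identity and receptor lists (1.42 and 1.39). In TAC-2w and TAC-6w it lay above the medians of all these sets. Cd74 had 7527 CPM in sham, 9045 in TAC-2w, 11964 in TAC-4w and 10177 in TAC-6w, with ratios of 1.2 (1.16 to 1.24), 1.59 (1.55 to 1.63) and 1.35 (1.32 to 1.39). In T cell barcodes the ratios of Cd74 were 0.318, 0.497 and 0.828, and in fibroblast barcodes 0.744, 0.605 and 0.496. The T cell barcodes of TAC-6w, only 42 in number, differed from this for other class II genes. Their ratios were 1.31 for H2-Aa and 1.58 for H2-Eb1 against 1.18 and 1.27 in B cells. H2-Aa had 2847, 3550, 3860 and 3360 CPM in B cells, and H2-Ab1, its partner chain, 1993, 2590, 2636 and 2425 CPM. Sham was the lowest of the 4 for each of these genes. In TAC-2w the cell with the most UMIs of a gene held 5.9% of those of Cd74, 5.51% of H2-Aa and 9.15% of H2-Ab1. For H2-Eb1, whose ratio in TAC-2w was 1.11, it held 8.08%. In sham the largest such share among these genes was 1.57%. The intervals do not cover this, and the ratios of TAC-2w without such cells were not tested. H2-DMb2, which helps to load peptide, had ratios of 1.03, 1.68 and 1.55.

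Many immediate early genes, which are transcribed within minutes of a stimulus, were lower in TAC-4w and to a lesser degree in TAC-6w. Of the 17, 16 and 16 measured genes of the list of immediate early and activation genes, 1 (Cd86, a costimulatory molecule, 2.14) was past 2-fold above sham in TAC-2w, 7 were past it below sham in TAC-4w and 3 in TAC-6w, with medians of 1.18, 0.519 and 0.712. Past 2-fold above sham were 1.09, 2.11 and 2.59% of all genes measured in the 3 comparisons, and below it 3.85, 11.9 and 7.77%. Fos, a subunit of the factor AP-1, had 2016 CPM in sham, 1753 in TAC-2w, 590 in TAC-4w and 997 in TAC-6w. Its ratio was 0.293 in TAC-4w (0.279 to 0.307) and 0.494 in TAC-6w (0.463 to 0.528). Egr1, a factor that follows antigen receptor signals, had 778, 1129, 164 and 692 CPM, and Nr4a1, a reporter of the same signals, 256, 365, 54.6 and 289 CPM. Both were above sham in TAC-2w (1.45 and 1.43) and far below it in TAC-4w (0.211 and 0.214), which is where the libraries differed most.

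Fos and Egr1 were also lower in T cell barcodes of TAC-4w and TAC-6w. Nr4a1 was lower there in TAC-4w but not in TAC-6w, with T cell ratios of 1.17, 0.374 and 1.86. In T cell barcodes Fos had ratios of 1.01, 0.441 and 0.522 and Egr1 1.12, 0.190 and 0.709, close to the B cells, and in fibroblast barcodes Fos had 1.17, 0.869 and 0.738. Whether the difference in B cells is more than one of the whole library was not tested. Cd83, an activation marker of B cells, had 185, 262, 88.8 and 151 CPM. Its ratios were 1.42, 0.480 and 0.814 in B cells and 1.98, 0.594 and 3.28 in T cell barcodes. T cell barcodes numbered 144 in sham, 124 in TAC-2w, 324 in TAC-4w and only 42 in TAC-6w. Their ratios are given without intervals, so a contrast with B cells in TAC-6w rests on few barcodes. Cd69, which is induced on activation and holds lymphocytes in tissue, had 698, 664, 863 and 341 CPM, and its ratio of 0.489 in TAC-6w was near that of T cell barcodes (0.403) and turned to 1.07 with mitochondrial UMIs under 5%. Cd69 thus went with TAC-6w and Cd83 with TAC-4w as the lowest library.

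**Figure D4:**
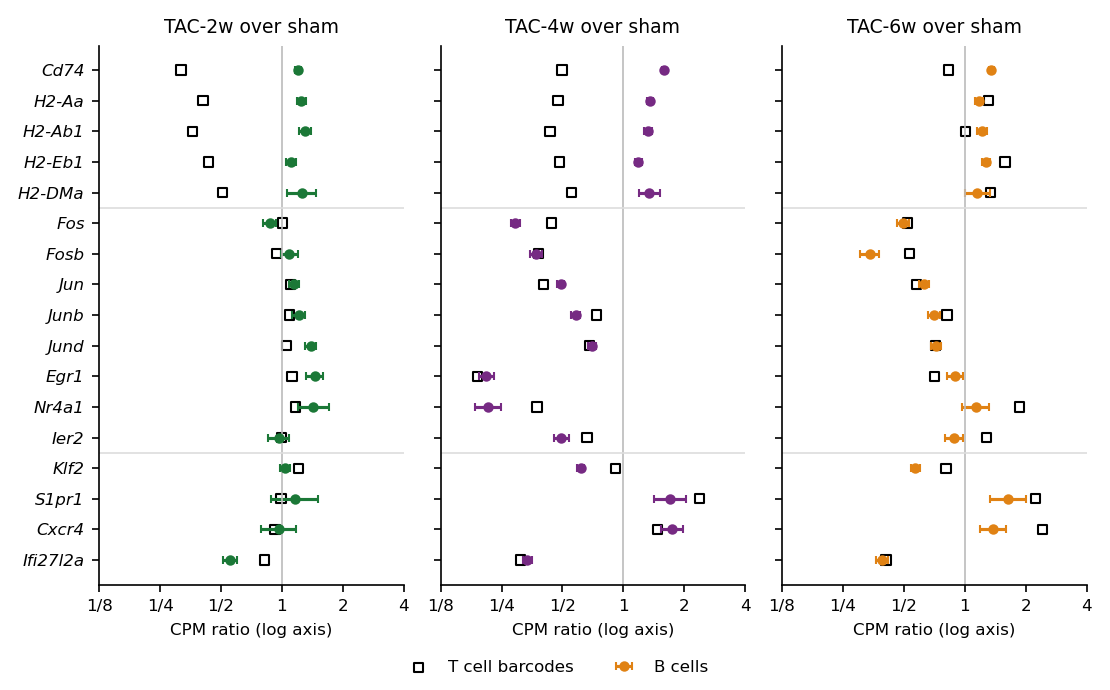
Ratio of CPM to sham on a log axis in B cells (filled circles, with counting intervals) and in T cell barcodes (open squares), 1 panel per TAC library. Class II genes lie above 1 in B cells of all 3 panels, and Fos, Jun and Egr1 lie below 1 in TAC-4w in both kinds of barcode.

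Genes of recirculation and of the interferon response differed in single members. The 6 measured genes of the homing list had median ratios of 1.09, 1.52 and 1.03, with none past 2-fold. S1pr1, the receptor by which lymphocytes leave tissue for blood and lymph, had 127, 147, 215 and 208 CPM, 1.69 times higher than sham in TAC-4w (1.42 to 2.03) and 1.63 times in TAC-6w (1.33 to 2.02). Klf2, the factor that drives S1pr1, went the other way, with 2948, 3046, 1813 and 1676 CPM. Cxcr4, the receptor for the chemokine CXCL12, had 250, 241, 433 and 343 CPM. T cell barcodes had S1pr1 ratios of 0.991, 2.37 and 2.23 and Klf2 ratios of 1.21, 0.914 and 0.809, so S1pr1 had the same direction in both cell types in TAC-4w and TAC-6w. Of the interferon list 4, 5 and 4 genes were measured, of which 0, 1 and 2 were past 2-fold below sham, against 3.85, 11.9 and 7.77% of all genes measured. Ifi27l2a had 2146, 1195, 720 and 840 CPM, and T cell barcodes had ratios of 0.817, 0.311 and 0.408.

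Of the other lists, the measured follicular genes (10 in each comparison) had medians of 1.04, 1.3 and 0.860 and survival genes (11, 13 and 11) had 1.13, 1.11 and 0.887, with none past 2-fold. Of the 5, 6 and 5 measured genes of the B1 cell list 1, 3 and 0 were past 2-fold below sham, with medians of 0.840, 0.682 and 0.799, among them Zbtb20 in TAC-4w (369 CPM in sham against 127), where 11.9% of all genes were past 2-fold below sham. Of the 11 measured heat shock genes 1 in TAC-2w and 3 in TAC-4w were past it below sham and 1 in TAC-6w above (Hspa1b, 2.60), with medians of 1.03, 0.730 and 0.798. Of the 3 measured transitional genes 2 were past 2-fold above sham in TAC-6w, Vpreb3 and Tmsb10, a small actin-binding protein (2.66, with 2.13 in T cell barcodes). Of all genes measured in the 3 comparisons 3.85, 11.9 and 7.77% were past 2-fold below sham and 1.09, 2.11 and 2.59% above it. Cd5, the defining surface gene of B1a cells, had 1, 1, 13 and 2 UMIs in all B cells, and so did not mark a group of cells. Mki67, a gene of dividing cells, had 5, 12, 235 and 29 UMIs, and Il10, an inhibitory cytokine of regulatory B cells, had 0, 0, 2 and 0. Stmn1, a tubulin-binding protein of dividing and immature cells, had 23.5, 72.1, 48.5 and 53.2 CPM and was higher in each TAC library (3.07, 1.86 to 5.20, 2.06, 1.37 to 3.25, and 2.26, 1.43 to 3.72). In TAC-2w 40.4% and in TAC-6w 23.9% of its UMIs were in 1 cell, and the share of B cells with a UMI was 10.1, 17.0, 10.3 and 5.82%. Ribosomal protein genes took 26.7, 27.4, 28.7 and 38.0% of B cell UMIs and 24.0, 25.2, 25.8 and 36.2% of the UMIs of T cell barcodes, highest in TAC-6w in both.

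When the comparison was limited to genes at least 2-fold higher in B cells than in other barcodes, few were past 2-fold. They were 3 of 229 in TAC-2w (1.31%), 4 of 260 in TAC-4w (1.54%) and 14 of 212 in TAC-6w (6.60%), a limit added after seeing the data. The 3 genes of TAC-2w were the histone gene Hist1h2ae above sham, with 56.5% of its UMIs in 1 cell, and Igha and Jchain at 0 UMIs. Hist1h2ae met the minimum of 100 CPM and the 2-fold limit against other barcodes through TAC-2w alone. Next above sham by the interval bound nearest 1, and within 2-fold, was Rel, an NF-kB subunit of activated lymphocytes. It was at 252 CPM in sham and 453 in TAC-2w (1.80), where T cell barcodes had a ratio of 0.588. The 4 genes past 2-fold in TAC-4w were Arhgef1 (2.08), Slamf6 (2.10) and AB124611 (2.06) above sham, each of which met the minimum of 100 CPM through TAC-4w alone, and Igha (0.279) below it. By the interval bound nearest 1, the first gene within 2-fold above sham was Unc93b1 (1.95), the chaperone of endosomal Toll-like receptors. Below sham Dusp2 (0.542) came first, then Hist1h1e (0.625), Wdr89 (0.624) and Rel (0.669). In TAC-6w 6 of the 14 genes were above sham and 8 below it. Leading above sham were Rps27, at 6610 CPM in sham and 16249 in TAC-6w (2.46), and Rpl38 (2.27), with T cell ratios of 2.70 and 2.74. These were ribosomal protein genes, with ratios in T cell barcodes as high as in B cells. Vpreb3 (2.41) was also above sham, and was at 0 CPM in T cell barcodes of TAC-6w. Among the 8 below sham were Igha and Jchain, Avl9 (0.294, with 0.473 in T cell barcodes), Hist1h1e (0.404, with 0.288) and BE692007 (0.452, with 0.910).

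Transcripts of other cells were among the largest differences between libraries when all genes were ranked. The neutrophil list, whose most abundant gene was S100a9, summed to 8.82 CPM in B cells of sham, 13.9 in TAC-2w, 6158 in TAC-4w and 2432 in TAC-6w, and to 1003, 949, 51264 and 3596 CPM in all other barcodes. In TAC-4w S100a8 had 2332 CPM spread over 1079 of the 2474 B cells, and S100a9 3058 CPM over 1376 cells. In TAC-6w S100a8 had 980 CPM, but 97.0% of its UMIs were in 1 cell, as were 95.1% of those of S100a9, 99.7% of Camp and 99.6% of Ngp. So the neutrophil transcripts were in many B cells at TAC-4w and in almost only 1 at TAC-6w. Ngp, Lcn2 and Camp, granule proteins of neutrophil precursors, were at 0 in sham and at 246, 207 and 187 CPM in TAC-4w, at least 83.6, 70.3 and 63.6 times higher with sham set to a floor of 3 UMIs in the library.

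Red cell, fibroblast and heart muscle sums in B cells were highest in sham. The haemoglobin genes of the red cell list, led by Hbb-bs, summed to 20726 CPM in B cells of sham, 304 in TAC-2w, 9886 in TAC-4w and 467 in TAC-6w, against 11441, 5361, 26924 and 1526 CPM in other barcodes. Fibroblast genes, led by Gsn, summed to 10368, 9162, 664 and 4852 CPM in B cells and 30030, 29894, 9010 and 24123 in the rest. Heart muscle genes, led by Tnnt2, summed to 567, 362, 31.8 and 88.3 CPM, with 79.0% of the Tnnt2 UMIs of sham in 1 cell, and macrophage genes, led by Apoe, to 1775, 2893, 892 and 1231 CPM. The T cell list was near 0, at 9.80, 9.71, 22.9 and 7.26 CPM, mostly as Lck, with Cd3d and Cd3e at 0 by the rule. The neutrophil and fibroblast sums had their highest and lowest values, respectively, in TAC-4w both in B cells and in the rest, while the red cell sum was lower in TAC-4w than in sham in B cells and higher in the rest. The part of these transcripts in the results above was not tested. B cells with under 10 fibroblast UMIs gave 33, 53 and 80 genes past 2-fold in place of 59, 172 and 116, with 22 higher and 11 lower in TAC-2w and 26 and 27 in TAC-4w.

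The genes with the largest ratios were mostly of these kinds, with Igha and Jchain of antibody-secreting cells among the lowest in TAC-2w and TAC-6w. Of the 59 genes past 2-fold in TAC-2w 13 were higher and 46 lower, of the 172 in TAC-4w 26 and 146, and of the 116 in TAC-6w 29 and 87, a balance that turned in TAC-2w without the fibroblast-rich cells. With each cell given equal weight the counts were 13, 57 and 84, and the share of higher genes in TAC-2w was 46.2% in place of 22%. Higher in TAC-2w were Il1b, from 8.82 to 198 CPM with 94.4% of its UMIs in 1 cell, and Cxcl2, with 82.1% in 1 cell. Lyz2 and Hist1h2ae had 44.7 and 56.5% of their UMIs in 1 cell and the rest spread, over 67 and 31 cells in all. Others were Nppa, the atrial natriuretic peptide of heart muscle, at 83.3 and 202 CPM (2.43, 1.85 to 3.22, 85 cells), and Irs2, the adaptor of the insulin receptor, at 72.5 and 165 CPM (2.28, 1.69 to 3.09, 65 cells). Each gene named here as higher in TAC-2w was under 100 CPM in sham, and so met that minimum through TAC-2w alone. Lower in TAC-2w were the haemoglobins, with Hbb-bs at 0.0144 of sham, and the fibroblast genes Adamts5 (0.146) and Myoc (0.131), which turned to 2.58 and 1.29 in B cells with under 10 fibroblast UMIs. Among the lowest in TAC-4w were Cxcl14 (0.0048), Pcsk6 (0.00852), Myoc (0.0106), Cxcl1 (0.0119) and Dpep1 (0.013). In TAC-6w Postn, a matrix protein of activated fibroblasts, was at 136 CPM against 19.6 in sham (6.95), in 22 cells.

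**Figure D5:**
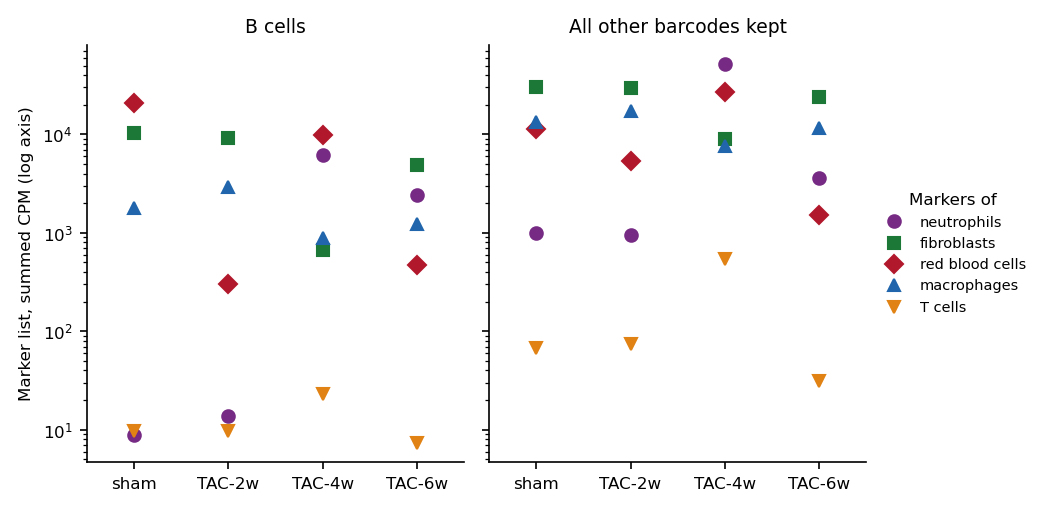
Summed level of marker lists of other cells (CPM, log axis) in B cells and in all other filtered barcodes of each library. Neutrophil genes stand at 6158 CPM in B cells of TAC-4w against 8.82 in sham, and fibroblast genes are lowest in TAC-4w.

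Class-switched and antibody-secreting cells were rare in the libraries. At least 5 UMIs of a switched heavy chain were held by 1 B cell in sham (0.420%), 0 in TAC-2w, 14 in TAC-4w (0.566%) and 2 in TAC-6w (0.306%). Of the 14 cells of TAC-4w 9 had Ighg2b, 4 Igha, 1 Ighg2c and 1 Ighg3, with 1 cell counted under 2 chains, and both cells of TAC-6w had Ighg2b. In sham 1212 of the 1216 Igha UMIs and all 182 UMIs of Jchain, the chain that joins IgA and IgM polymers, were in 1 cell with 29553 UMIs in all. The difference in Igha between sham and TAC-2w, which had 0 UMIs and so was at least 286 times lower at the floor of 3 UMIs, thus rested on 1 cell. In TAC-4w Igha had 4164 UMIs, of which 1753 were in 1 cell. At least 10 Jchain UMIs were held by 1, 0, 6 and 0 B cells.

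In the sections single immunoglobulin genes followed different orders from the libraries. Ighd had 6 UMIs in the sham section, 29 in TAC-2w, 22 in TAC-4w and 47 in TAC-6w, which gave ratios to sham of 2.58 (1.05 to 7.59), 2.98 (1.17 to 9.0) and 4.22 (1.80 to 12.1). Bank1, a scaffold of antigen receptor signalling, had 4, 24, 16 and 39 UMIs, with ratios of 3.2, 3.26 and 5.25. These were above the ratio of the 5 markers together (0.813, 1.14 and 1.55) in each section, from few UMIs in sham. Ighm had 168, 277, 212 and 456 UMIs, with ratios of 0.879, 1.03 and 1.46, and Igkc 203, 260, 144 and 349 UMIs, with 0.683, 0.577 and 0.926. Cr2 was at 0 in all 4 sections. Fcer2a had 4, 6, 4 and 15 UMIs and Pax5 2, 6, 2 and 6, which allowed no order.

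Transcripts of switched heavy chains differed in how they were spread over spots. Igha had 16, 181, 582 and 207 UMIs in the 4 sections, with 4, 100, 299 and 42 of them in the spot that held the most. Jchain had 22, 27, 76 and 44 UMIs. Ighg1 had 143 UMIs over 59 spots of the sham section, with 41 in 1 spot, and 0 UMIs in the others. Ighg2c had 94, 23, 47 and 106 UMIs over 87, 22, 45 and 96 spots, with at most 2 in any spot. The sham section thus carried IgG1 transcripts that the TAC sections did not, and the TAC-4w section had the most Igha. T cell genes summed to 85, 106, 367 and 768 UMIs, with ratios of 0.665, 3.51 and 4.86, while the same list in whole libraries had 1.12, 5.69 and 0.452. In TAC-6w the section thus had the highest T cell signal of the 4 and the library the lowest.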

How the data were processed

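The authors deposited whole-number UMI counts per gene and barcode or spot, made with Cell Ranger and Space Ranger on mm10, with no normalization. The submitters' processing notes give Cell Ranger 7.0.0 and Space Ranger 1.3.1, while the file headers give cellranger-6.0.0 and spaceranger-1.2.0. Barcodes with 200 to 6000 genes, 500 to 30000 UMIs and under 15% mitochondrial UMIs were kept. Members and gene lists were chosen with earlier results of these data known. Doublets were kept, and an alternative left out the top 3.2% of Scrublet scores (scanpy 1.11.5, expected rate 7%). Levels are CPM of UMIs summed over B cells, with exact Poisson, binomial (Clopper-Pearson) and conditional binomial 95% intervals (scipy 1.17.1). UMI intervals and the 3-UMI floor cover counting error only. Genes named from each comparison with sham were the 8 highest and 8 lowest ratios by the interval bound nearest 1, among genes with at least 100 CPM in either library and 20 UMIs together, leaving out mitochondrial and ribosomal RNA features and unnamed gene models. Genes that met these minimums are called measured in the comparisons with sham, and past 2-fold refers to the ratio alone. For the subsets, edgeR 4.0.16 (R 4.3.3) fitted 8 sums with library as block and Benjamini-Hochberg adjustment over all genes tested, and the 10 largest differences each way with 1 direction in all libraries were named. DESeq2 1.42.0 was an alternative. On simulated data the edgeR test recovered 87.5% of 184 genes changed 2-fold among 4729. These data had 1 expression profile for all libraries and 1 fixed dispersion, so recovery of smaller differences or in the real libraries was not measured. T cell barcodes held at least 2 UMIs of Cd3d and Cd3e, and fibroblast barcodes at least 10 of Col1a1, Col3a1 and Dcn and none of Cd3d and Cd3e, both without a UMI of the B cell rule genes. Some genes that the rule names are not reported here.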

Additional observations from a re-analysis of the deposited data

Results flagged for a closer look

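Immunoglobulin genes had opposite directions in the whole library and in the section of the same time point, relative to sham. Ighd in TAC-2w was at 0.832 of sham in the library and at 2.58 in the section. Igkc in TAC-4w was at 27.4 in the library and at 0.577 in the section, and Ighg2c in TAC-4w at 8.06 and 0.407. Igha in TAC-2w was at 0.000873 in the library, where 1 cell of sham held nearly all UMIs, and at 6.03 in the section, where 1 spot held 100 of 181 UMIs. Each pair was picked out because its members lie on opposite sides of 1, and the difference between library and section was not tested.

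Barcodes with at least 10 Jchain UMIs also occurred outside the B cells as defined, 3 in TAC-4w and 1 in TAC-6w against 0 in sham and 0 in TAC-2w. Immunoglobulin genes took a median of 56.7% of the UMIs in the 3 barcodes of TAC-4w and 51.2% in the one of TAC-6w. They held 2313 of the 6539 Igha UMIs of the TAC-4w library and 3504 of the 3531 of TAC-6w.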

How the results depend on the processing

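Each condition is 1 library, 2 of them alone in their batch, so no difference between conditions can be separated from the animal or preparation, nor, for TAC-2w and TAC-4w, from the batch. Most B cells come from TAC-4w, depth per cell differs, and low genes were not detectable in 153 to 653 cells. No paired analysis was possible because each group has 1 replicate, which holds for comparisons between conditions, while the subsets were compared within libraries. Of 135 main values under 30 planned and 5 added alternatives, 64 kept within their limits and 71 did not. For every value below that moved, the cause was not tested unless the alternative itself sets it.

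The share of B cells was 15.2% in TAC-6w with at least 3 marker UMIs. With at least 10 it was 2.18% in sham, 1.89% in TAC-2w, 34.6% in TAC-4w and 4.03% in TAC-6w. In TAC-6w thinned to 1000 UMIs, with a minimum of 2 marker UMIs, it was 13.1%. Without filters it was 2.40, 1.99 and 30.1% in sham, TAC-2w and TAC-4w, with mitochondrial UMIs under 5% 0.668, 0.755 and 24.0%, and without excluding T cell and macrophage genes 38.0% in TAC-4w. Among barcodes with Ptprc it was 6.85, 5.55, 45.9 and 21.1%. Ighm-only cells were 10.9, 11.8, 4.16 and 16.8% unthinned, 24.2, 22.4, 12.5 and 21.9% at 2000 UMIs, and 11.3, 12.6, 4.11 and 16.8% unthinned with under 10 fibroblast UMIs, a setting chosen after seeing the data. With mitochondrial UMIs under 5% they were 25.7% in sham and 53.3% in TAC-2w.

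Genes past 2-fold numbered 13 in TAC-2w and 57 in TAC-4w with cells weighted equally, 368, 629 and 523 in TAC-2w, TAC-4w and TAC-6w with mitochondrial UMIs under 5%, and 92 in TAC-4w with doublets left out. By the alternatives added later they were 33 in TAC-2w and 53 in TAC-4w with under 10 fibroblast UMIs, and 3, 4 and 14 among B cell-enriched genes. With mitochondrial UMIs under 5% the ratio turned for Il1b in TAC-2w (0), Cd69 in TAC-6w (1.07) and Igha in TAC-6w (1.11). Igha in TAC-6w was 2.02 with at least 10 marker UMIs, and Adamts5 and Myoc in TAC-2w were 2.58 and 1.29 with under 10 fibroblast UMIs.

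In the test of Ighm-only against marker-positive cells, DESeq2 called 78 genes higher and 83 lower. Without a filter on low counts 546 genes were called (356 higher and 190 lower), unthinned 87 (68 and 19), at 2000 UMIs 440 (274 and 166), and with under 10 fibroblast UMIs 99 (77 and 22). With doublets left out 43 were lower, and unthinned with under 10 fibroblast UMIs 119 were lower. Without the library as block edgeR called 1 gene (1 higher and 0 lower, with 168 genes at an unadjusted p under 0.05). Leaving out 1 library gave 37 to 194 genes, 19 to 143 higher and 12 to 51 lower. Unthinned, the direction turned for Timp1 (-1.17), Meg3 (-0.028), Sparc (-0.37) and Col1a1 (-0.40), and for Sparc also with under 10 fibroblast UMIs (-1.23). The 5 markers in sections, with mitochondrial and ribosomal RNA features left out of the total, had 3.19, 2.22, 3.04 and 4.29 CPM, and the ratio of TAC-4w to sham was then 0.954 in place of 1.14.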
